A study of Mus musculus with 4 samples.

Results

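The genes described here are 58 core genes of the WNT pathway, out of 26031 annotated genes, chosen by name and grouped by role: 19 WNT ligands, 15 receptors and co-receptors (10 Frizzled genes, Lrp5, Lrp6 and Lgr4 to Lgr6), 10 secreted antagonists and 14 intracellular parts. Each gene was represented by the 5 kb bins of the mm9 mouse genome that overlap its body or the 5 kb upstream of its start, 626 distinct bins in all. The study captured DNA fragments carrying 5-hydroxymethylcytosine (5hmC), into which TET enzymes convert methylated cytosine, from 4 cultures: wild-type and LSH knockout mouse embryonic stem (ES) cells, and wild-type and LSH knockout mouse embryonic fibroblasts (MEFs). LSH, encoded by Hells, is a chromatin remodeler of the SNF2 family. Both cell types were grown in serum, the ES cells also with LIF. The sources used here give no strain, knockout allele, clone or embryo age, and the labelled cell types could not be checked against markers because no expression was measured.

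The values analysed are 2 lists, one for ES cells and one for MEFs, of bins at which the authors found the knockout to differ from wild type. A list gives the position of each bin and nothing on its level, direction or size of change, so a listed bin is called altered, without saying whether 5hmC rose or fell. Each group had 1 library and the read depth is unknown. No test between genotypes or cell types was therefore possible, and no value below has a replicate error. Brackets hold exact 95% binomial intervals (Clopper-Pearson), which cover counting error over bins only, and neighbouring bins are not independent. The deposited lists hold 8557 ES bins and 9002 MEF bins.

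WNT proteins are secreted lipid-modified ligands that bind Frizzled receptors together with the co-receptors LRP5 or LRP6. In the canonical branch this stops a complex of Axin, APC and GSK3 from marking beta-catenin for destruction, and beta-catenin then acts with TCF/LEF factors at target genes. WNT signalling supports self-renewal of ES cells and shapes the growth and matrix of connective tissue cells, and secreted antagonists such as the SFRP and Dickkopf proteins hold it back outside the cell.

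About 1 in 3 of the WNT genes had an altered bin in each cell type, more than among all genes. The genes were chosen with earlier results of these data known, so the excess is not that of an independently chosen set. In ES cells 20 of 58 had at least 1 listed bin, or 34.5%, against 19.8% of all genes. In MEFs it was 18 of 58, or 31.0%, against 14.1%. The genes with an altered bin fell into 11 on the ES list alone, 9 on the MEF list alone and 9 on both, leaving 29 on neither. A bin on each list was found at 15.5% of the WNT genes, against 5.90% of all genes. Counted over bins, 30 of 626 were listed in ES cells (4.79% [3.26% to 6.77%], against 2.57% of all bins over genes) and 37 of 626 in MEFs (5.91% [4.20% to 8.06%], against 2.37%). The same bin was on both lists in 3 cases, or 0.479% of the 626 bins, against 0.117% of all bins over genes. These were 10.0% of the ES bins and 8.11% of the MEF bins of the WNT genes, where the like shares over all genes were 4.57% and 4.95%. At least 3 bins were listed at 3 WNT genes in ES cells (5.17%, against 1.68% of all genes) and at 4 in MEFs (6.90%, against 2.10%).

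Genes on both lists were long, and the bins of WNT genes were rich in CpG. The median length was 114 kb for the 9 genes on both lists. It was 22.7 kb for the 11 on the ES list alone and 30.8 kb for the 9 on the MEF list alone, against 20.8 kb for the 29 on neither. Of the 15 WNT genes over 60 kb, 10 had an ES bin (66.7%, against 43.1% of all genes of that length) and 8 a MEF bin (53.3%, against 38.4%). Of the 20 between 20 and 60 kb, 5 had an ES bin (25.0%, against 25.2%) and 5 a MEF bin (25.0%, against 16.0%). The 23 genes under 20 kb had a bin at 5 genes in each list (21.7%, against 11.2% in ES cells and 6.52% in MEFs). The shares were thus above those of all genes in each length class except the middle one in ES cells. The bins over WNT genes held a median of 12.2 CpG per kb, against 8.60 in all bins over genes. CpG is the base pair step that carries most methylated cytosine in mammals. The part of length and CpG content in the counts was not tested.

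**Figure D1:**
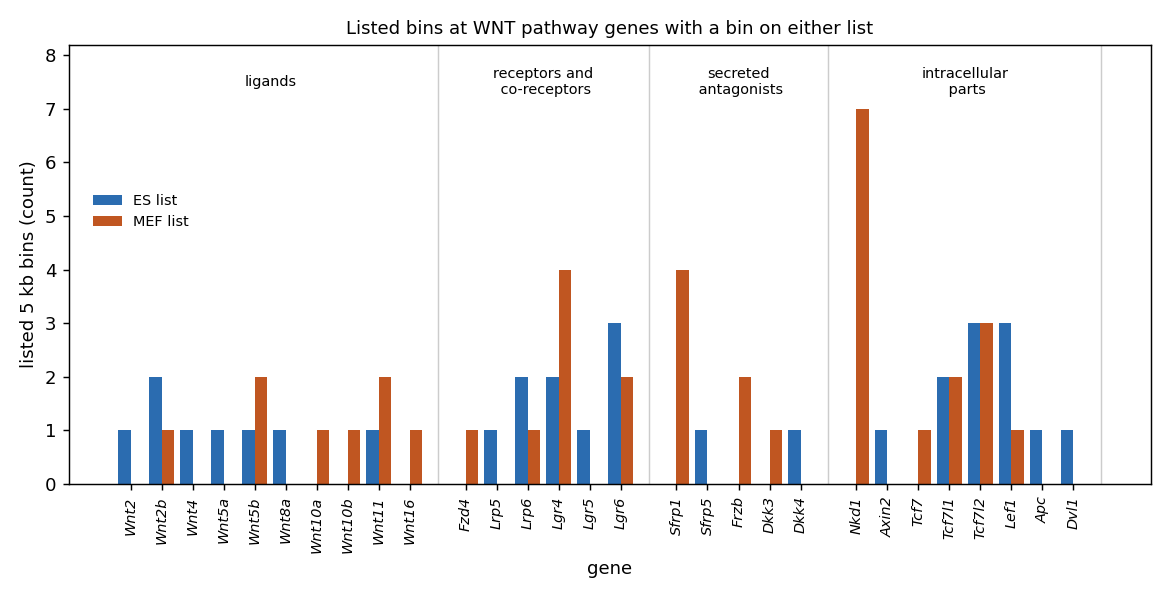
Number of listed 5 kb bins (y axis) at each of the 29 WNT pathway genes with a bin on either list (x axis), grouped by role, with ES bins in blue and MEF bins in orange. Nkd1 stands highest with 7 MEF bins and 0 ES bins, and the 3 genes with 3 ES bins are Lgr6, Tcf7l2 and Lef1.

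Among the ligands, 7 of 19 genes had an ES bin (36.8%, against 19.8% of all genes). A MEF bin lay at 6 of 19 (31.6%, against 14.1%). The listed share of the 145 ligand bins was the same on both lists, 8 bins or 5.52% [2.41% to 10.6%]. This interval holds the 2.57% of all genes in ES cells, and the 2.37% in MEFs lies just below it. The ES genes were Wnt2, Wnt2b, Wnt4, Wnt5a, Wnt5b, Wnt8a and Wnt11, and the MEF genes Wnt2b, Wnt5b, Wnt10a, Wnt10b, Wnt11 and Wnt16. The 2 sets shared Wnt2b, Wnt5b and Wnt11. No ligand gene had more than 2 bins on a list.

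At Wnt2b, the ligand gene with most ES bins, the lists met at the start of the gene. The ES bins lay on chromosome 3 at 104755001 to 104760000, over coding exon sequence, and at 104760001 to 104765000, which holds the transcription start at 104764627. The MEF bin was the next one upstream, 104765001 to 104770000. The 300 bases before the start (chr3:104764628-104764927, minus strand of mm9, shown because it lies in the ES bin directly beside the MEF bin) hold 42 CpG, which are in capitals.
Wnt2b, before the start: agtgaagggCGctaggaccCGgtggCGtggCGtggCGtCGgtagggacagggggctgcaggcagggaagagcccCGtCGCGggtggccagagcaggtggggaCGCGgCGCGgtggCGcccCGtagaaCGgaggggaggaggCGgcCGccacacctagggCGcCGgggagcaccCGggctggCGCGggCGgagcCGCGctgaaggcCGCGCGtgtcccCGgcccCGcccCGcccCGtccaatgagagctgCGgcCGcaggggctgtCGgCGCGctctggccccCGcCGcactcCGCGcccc
With no reach upstream of the gene Wnt2b has 0 MEF bins and keeps its 2 ES bins.

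Wnt5b, whose product acts mainly outside the beta-catenin branch, had a bin on both lists at chromosome 6, 119385001 to 119390000, in an intron near the 3′ end of its 112 kb locus. A second MEF bin lay 10 kb further toward the start, at 119395001 to 119400000, over coding exon sequence. Wnt11, a ligand of cell movement and kidney branching, had 1 ES bin upstream of its start (chromosome 7, 105975001 to 105980000) and 2 MEF bins inside the gene (105990001 to 105995000, over coding exon sequence, and 106000001 to 106005000, over coding exon and 3′ UTR sequence). Its ES bin is lost when no upstream sequence is counted.

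The other ligand genes had 1 bin each. In ES cells a promoter bin lay at Wnt2 (chromosome 6, 17980001 to 17985000), a ligand of lung and placenta development, and one at Wnt8a, a ligand of the gastrulating embryo. The ES bin of Wnt4, needed for kidney and female gonad development, covered coding exon and 3′ UTR sequence (chromosome 4, 136850001 to 136855000). The ES bin of Wnt5a, the ligand that directs cell polarity and outgrowth, covered coding exon sequence (chromosome 14, 29325001 to 29330000). In MEFs a promoter bin lay at Wnt10b (chromosome 15, 98605001 to 98610000), a ligand that restrains fat cell formation, with 35.0 CpG per kb. Wnt10a, a ligand of tooth and skin appendages, had a bin over coding exon sequence (chromosome 1, 74840001 to 74845000). The bin of Wnt16 reached only the end of its 3′ UTR (chromosome 6, 22250001 to 22255000), and it is lost when the bin midpoint must lie in the region. Wnt1, Wnt3, Wnt3a, Wnt6, Wnt7a, Wnt7b, Wnt8b, Wnt9a and Wnt9b had no bin on either list.

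A number of WNT ligand genes sit side by side in the genome as old tandem pairs. Of 4 such pairs, Wnt10b with Wnt1 (11.7 kb apart) and Wnt10a with Wnt6 (6.20 kb apart) each had 1 MEF bin from the first to the last base of the pair, in the Wnt10 member. Wnt3 with Wnt9b, over 19 bins, and Wnt3a with Wnt9a, over 18 bins, had 0 bins on either list. None of the 4 pairs had an ES bin. Over all genes 2.57% of bins were on the ES list and 2.37% on the MEF list. At these shares few bins would be listed over regions of this size, so the counts do not set the pairs apart.

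Among the receptors and co-receptors, 5 of 15 genes had an ES bin (33.3%, against 19.8% of all genes). A MEF bin lay at 4 of 15 (26.7%, against 14.1%). Of the 10 Frizzled genes, which encode the WNT-binding receptors, 0 had an ES bin and 1, Fzd4, had a MEF bin. This came to 0 of 45 bins in ES cells [0% to 7.87%], an interval that holds the 2.57% of all genes, and 1 of 45 in MEFs (2.22% [0.0562% to 11.8%]), near the 2.37% of all genes. Frizzled genes are short, with a median of 4.59 kb, and the longest, Fzd3 at 61.4 kb, also had no bin among its 15. The Fzd4 bin (chromosome 7, 96555001 to 96560000) covered coding exon and 3′ UTR sequence of this receptor of retinal vessel growth, and began a stretch of 3 listed bins, joined within 10 kb, that ran on past the gene to 96585000.

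The LGR genes, which encode receptors for R-spondins and so raise the number of Frizzled receptors at the cell surface, had 3 of 3 genes on the ES list and 2 of 3 on the MEF list. Among all genes 19.8% had an ES bin and 14.1% a MEF bin. On each list 6 of the 76 LGR bins were altered, or 7.89% [2.95% to 16.4%], against 2.57% and 2.37% over all genes. This interval overlaps those of the Frizzled genes. The LGR genes are long, 96.6 to 137 kb. Of all genes over 60 kb, 43.1% had an ES bin and 38.4% a MEF bin. Lgr4, the broadly expressed member, had 2 ES bins and 4 MEF bins. Its MEF bins lay on chromosome 2, with 1 in the intron just after the start (109760001 to 109765000) and 3 within a 20 kb stretch, at 109795001 to 109800000 and from 109805001 to 109815000. The last of these, 109810001 to 109815000, over coding exon sequence, was on both lists. The other ES bin was intronic (109770001 to 109775000).

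Lgr6, a marker of skin stem cells, had 3 ES bins and 2 MEF bins. The bin on both lists (chromosome 1, 136910001 to 136915000) covered an exon that is 5′ UTR in one of the transcript models, 89.4 kb from the start of the locus. A pair of touching ES bins lay in an intron (136950001 to 136960000), and a MEF bin covered coding exon sequence 5 kb from them (136965001 to 136970000). Lgr5, the marker of intestinal stem cells and a WNT target itself, had 1 ES bin over coding exon sequence (chromosome 10, 114955001 to 114960000) and 0 MEF bins.

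The bins shared by both lists at Lgr4 and Lgr6 held 7.20 and 11.4 CpG per kb, below the median of the WNT genes. The other shared bin of the WNT genes, at Wnt5b, held 13.4 CpG per kb, above that median of 12.2. The 300-base window with most CpG among the MEF bins of Lgr4 (chr2:109810011-109810310, plus strand, 8 CpG) and that among the ES bins of Lgr6 (chr1:136911351-136911650, minus strand, 9 CpG) both fell in the shared bins. They are shown as examples of sequence at bins altered in both cell types, with each CpG in capitals.
Lgr4: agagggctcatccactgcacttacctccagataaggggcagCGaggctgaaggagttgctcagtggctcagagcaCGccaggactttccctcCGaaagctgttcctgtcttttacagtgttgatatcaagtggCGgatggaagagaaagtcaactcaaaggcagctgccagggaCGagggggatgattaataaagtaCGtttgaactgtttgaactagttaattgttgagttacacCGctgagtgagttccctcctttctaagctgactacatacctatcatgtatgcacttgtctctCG
Lgr6: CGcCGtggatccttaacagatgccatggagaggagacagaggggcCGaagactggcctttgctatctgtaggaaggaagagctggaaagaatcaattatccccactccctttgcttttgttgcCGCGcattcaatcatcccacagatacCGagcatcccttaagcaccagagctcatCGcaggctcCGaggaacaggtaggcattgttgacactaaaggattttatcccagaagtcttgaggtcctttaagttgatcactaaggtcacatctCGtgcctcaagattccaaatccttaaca
For comparison, the window before the start of Wnt2b holds 42 CpG in the same number of bases.

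Of the LRP co-receptors, Lrp6 had 2 ES bins, at its promoter (chromosome 6, 134515001 to 134520000, 41.0 CpG per kb) and in an intron (134465001 to 134470000), and 1 MEF bin over coding exon sequence (134435001 to 134440000). Lrp5, known for its role in bone mass, had 1 ES bin over coding exon and 3′ UTR sequence (chromosome 19, 3585001 to 3590000). Over both genes 3 of 49 bins were listed in ES cells (6.12% [1.28% to 16.9%], against 2.57% over all genes). In MEFs it was 1 of 49 (2.04% [0.0517% to 10.9%], against 2.37%). Both intervals hold the share over all genes.

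**Figure D2:**
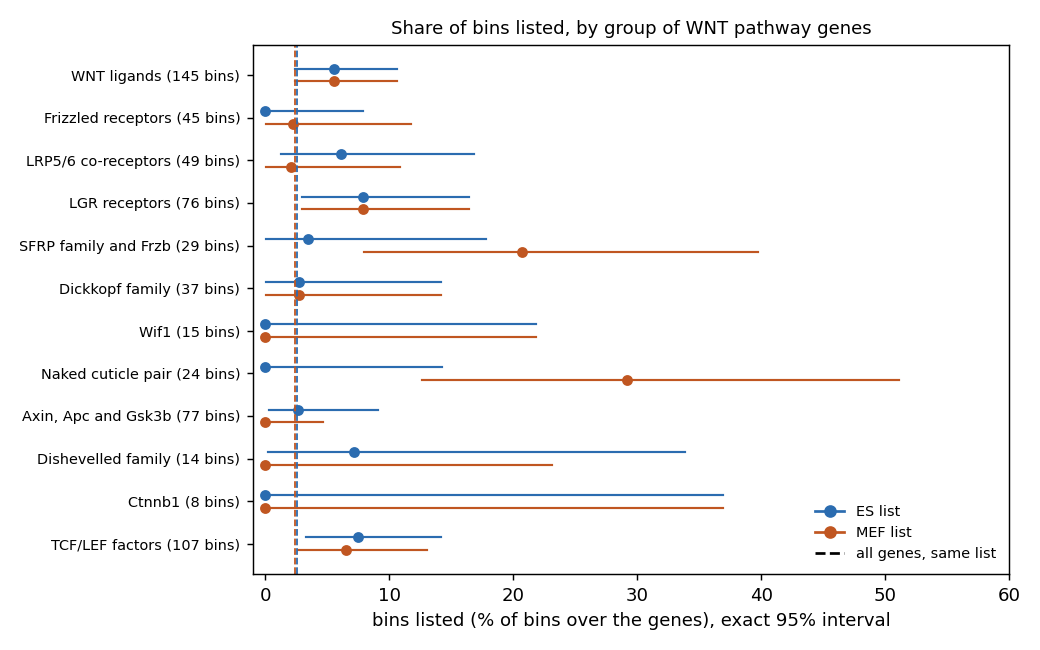
Share of 5 kb bins listed (x axis, percent, with exact 95% binomial intervals as lines) for each family of WNT pathway genes (y axis, with its number of bins), with ES values in blue, MEF values in orange and the share over all genes dashed. The MEF points of the naked cuticle pair (29.2%) and of the SFRP family with Frzb (20.7%) lie farthest to the right.

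Secreted antagonists were listed in ES cells at 2 of 10 genes and 2 of 81 bins (2.47% [0.300% to 8.64%]), close to the 19.8% of genes and 2.57% of bins over all genes. In MEFs it was 3 of 10 genes (30.0%, against 14.1% of all genes) and 7 of 81 bins (8.64% [3.55% to 17.0%], against 2.37% of bins over all genes). The intervals of the 2 cell types overlapped, and their difference was not tested. The genes differed between the lists, Sfrp5 and Dkk4 in ES cells and Sfrp1, Frzb and Dkk3 in MEFs. Among all genes only 5.90% had a bin on each list, so the lack of a shared gene among 10 says little. Sfrp1 alone gave 4 of the 7 MEF bins, and without it the MEF share was 4.23%.

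Sfrp1, a secreted decoy that binds WNT proteins, had 4 of its 10 bins listed in MEFs and 0 in ES cells. The bins lay on chromosome 8, 3 of them touching in intron sequence (24540001 to 24555000) and 1 over the end of the 3′ UTR (24560001 to 24565000). Listed MEF bins ran on past the gene end at 24560104, in a stretch of 7 bins to 24595000. Of 6643 genes with 10 or more bins, 13 had as high a listed share in MEFs as Sfrp1, itself included. Its promoter was on neither list. The 300-base window with most CpG in its altered bins (chr8:24540468-24540767, plus strand, intron, 10 CpG in capitals) is shown. It was chosen by CpG count, and the lists do not show which bases within a bin were altered.
Sfrp1: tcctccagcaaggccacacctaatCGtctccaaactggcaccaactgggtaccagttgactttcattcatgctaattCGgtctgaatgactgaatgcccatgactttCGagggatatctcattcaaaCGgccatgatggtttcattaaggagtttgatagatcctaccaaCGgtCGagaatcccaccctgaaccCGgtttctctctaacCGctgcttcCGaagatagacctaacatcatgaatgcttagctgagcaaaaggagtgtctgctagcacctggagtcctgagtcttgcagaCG

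Frzb, the SFRP relative first known from cartilage, had 2 touching MEF bins (chromosome 2, 80270001 to 80280000), 1 intronic and 1 over coding exon sequence. Dkk3, a divergent Dickkopf gene, had 1 MEF bin over coding exon sequence (chromosome 7, 119290001 to 119295000). In ES cells the single bins of Sfrp5 (chromosome 19, 42275001 to 42280000, 30.6 CpG per kb) and Dkk4 (chromosome 8, 23735001 to 23740000) both covered a promoter. The Dkk4 bin begins after the gene start at 23734515 and also covers coding exon and 3′ UTR sequence. It touches Polb too, so counting only bins that touch no other gene leaves 1 ES antagonist gene. Sfrp2, Sfrp4, Wif1, Dkk1 and Dkk2 had no bin on either list. Dkk2 was among them although it has 21 bins. These were CpG-poor, with a median of 6.80 CpG per kb.

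**Figure D3:**
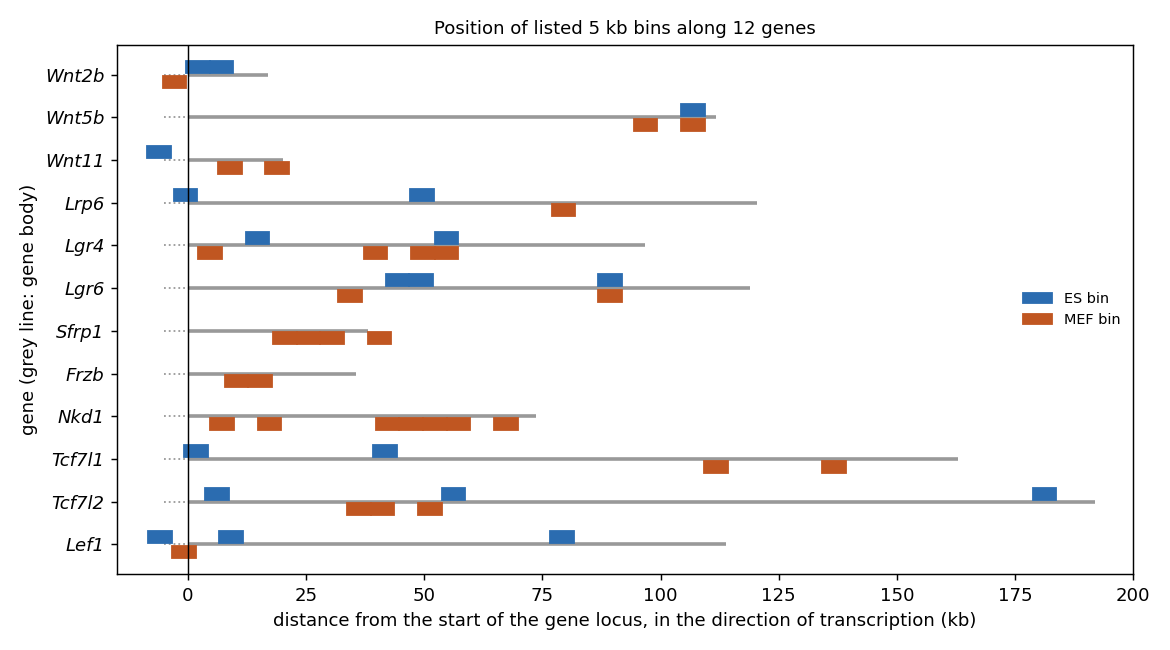
Position of listed 5 kb bins along 12 genes (y axis), as distance in kb from the start of the locus in the direction of transcription (x axis), with ES bins in blue above each line, MEF bins in orange below it and the gene body in grey. The genes are the 9 with bins on both lists and Sfrp1, Frzb and Nkd1, whose bins are all on the MEF list, and the blocks above and below a line coincide at Wnt5b, Lgr4 and Lgr6.

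Intracellular parts had 6 of 14 genes on the ES list (42.9%, against 19.8% of all genes). On the MEF list were 5 of 14 (35.7%, against 14.1%). Of their 230 bins, 11 were listed in ES cells (4.78% [2.41% to 8.40%], against 2.57% over all genes). In MEFs it was 14 of 230 (6.09% [3.37% to 10.0%], against 2.37%). Nkd1 gave 7 of the 14 MEF bins, and without it the MEF share was 3.27%. The rest of the MEF bins all lay in the TCF/LEF genes.

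Nkd1, an inhibitor that binds Dishevelled and is itself switched on by WNT signalling, had 7 of its 16 bins listed in MEFs, or 43.8%, and 0 in ES cells. They lay on chromosome 8 at 91050001 to 91055000, at 91060001 to 91065000, as 4 touching bins from 91085001 to 91105000, and at 91110001 to 91115000. Of these 4 were intronic and 3 covered exons, and none covered the promoter. Among all genes 90 of 26031 had 7 or more MEF bins (0.346%), and 5 of the 6643 genes with 10 or more bins had as high a listed share, Nkd1 included. The altered stretch continued beyond the gene end at 91118786 to 91130000. Its paralog Nkd2 had no bin on either list. The CpG-richest 300 bases of the altered bins (chr8:91103422-91103721, plus strand, intron) hold 12 CpG, in capitals, and are shown because no other WNT gene had more altered bins.
Nkd1: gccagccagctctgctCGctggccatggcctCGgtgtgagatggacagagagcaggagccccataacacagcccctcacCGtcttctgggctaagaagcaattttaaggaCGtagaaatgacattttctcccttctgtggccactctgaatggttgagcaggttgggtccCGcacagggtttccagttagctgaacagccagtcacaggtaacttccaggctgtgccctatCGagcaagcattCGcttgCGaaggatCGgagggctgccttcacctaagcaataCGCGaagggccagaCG

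The TCF/LEF factors are the DNA-binding end of the pathway. On the MEF list were 4 of 4 genes, against 14.1% of all genes, and on the ES list 3 of 4, against 19.8%. These genes are long, with a median of 138 kb (30.8 to 192 kb). Of all genes over 60 kb, 38.4% had a MEF bin and 43.1% an ES bin. Of the 107 TCF/LEF bins, 8 were listed in ES cells (7.48% [3.28% to 14.2%], against 2.57% over all genes). In MEFs it was 7 (6.54% [2.67% to 13.0%], against 2.37%). No bin of these 107 was on both lists. Over all genes only 0.117% of bins were, so the lack of a shared bin says little. Tcf7l2, a major TCF of gut and pancreas, had 3 bins on each list. Its MEF bins were intronic (chromosome 19, 55850001 to 55860000 and 55865001 to 55870000). An ES bin touched the last of these (55870001 to 55875000). The other ES bins lay in the intron near the start (55820001 to 55825000) and over coding exon and 3′ UTR sequence (55995001 to 56000000). The CpG-richest 300 bases of its ES bins (chr19:55871841-55872140, plus strand, intron, 15 CpG in capitals) lie in the ES bin that touches the MEF bins, and are shown for that reason.
Tcf7l2: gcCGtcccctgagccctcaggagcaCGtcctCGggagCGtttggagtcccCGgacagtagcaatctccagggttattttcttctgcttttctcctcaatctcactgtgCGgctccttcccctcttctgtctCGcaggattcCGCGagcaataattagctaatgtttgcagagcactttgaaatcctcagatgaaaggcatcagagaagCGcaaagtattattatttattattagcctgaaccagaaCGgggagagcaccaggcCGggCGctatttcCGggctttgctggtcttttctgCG

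Lef1, which is both a factor of the pathway and one of its targets, had 3 ES bins and 1 MEF bin. The MEF bin (chromosome 3, 130810001 to 130815000, 45.8 CpG per kb) holds its start at 130813389. An ES bin lay directly before it (130805001 to 130810000), one followed within the gene (130820001 to 130825000), and one lay over coding exon sequence (130890001 to 130895000). Both lists also held bins further upstream, beyond the 5 kb counted, the joined ES stretch starting at 130790001 and the MEF stretch at 130795001. The 300 bases before the start, in the MEF bin (chr3:130813089-130813388, 26 CpG), and the CpG-richest 300 bases of the ES bins (chr3:130808994-130809293, 33 CpG) are both on the plus strand. They are set side by side because at this gene each cell type had its own altered bin that holds CpG-dense sequence. CpG are in capitals, and the lists do not show which bases within a bin were altered.
Lef1, MEF bin: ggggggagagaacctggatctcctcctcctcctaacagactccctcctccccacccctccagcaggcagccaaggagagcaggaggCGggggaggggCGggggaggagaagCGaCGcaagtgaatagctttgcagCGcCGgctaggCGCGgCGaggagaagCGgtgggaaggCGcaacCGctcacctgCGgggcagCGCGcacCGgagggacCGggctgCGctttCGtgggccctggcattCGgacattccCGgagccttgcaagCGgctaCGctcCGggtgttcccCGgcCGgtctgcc
Lef1, ES bin: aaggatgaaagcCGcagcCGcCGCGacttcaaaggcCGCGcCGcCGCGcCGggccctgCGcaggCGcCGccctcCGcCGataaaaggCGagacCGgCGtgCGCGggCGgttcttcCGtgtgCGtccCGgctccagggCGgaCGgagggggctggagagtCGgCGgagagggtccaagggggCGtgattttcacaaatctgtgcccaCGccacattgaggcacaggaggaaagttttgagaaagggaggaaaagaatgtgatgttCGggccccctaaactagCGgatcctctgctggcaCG

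Tcf7l1, the TCF that acts as a repressor in ES cells, had a promoter bin (chromosome 6, 72735001 to 72740000, 42.4 CpG per kb) and an intron bin (72695001 to 72700000) on the ES list. On the MEF list it had 2 intron bins (72600001 to 72605000 and 72625001 to 72630000). The nearest ES and MEF bins of Tcf7l1 were 70.0 kb apart, the widest separation among the 9 genes on both lists. Tcf7, a factor of T cell development, had 1 MEF bin in an intron (chromosome 11, 52085001 to 52090000), which also touches A630014C17Rik.

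Of the remaining intracellular genes, 3 had 1 ES bin and none a MEF bin. Axin2, the scaffold that WNT signalling induces as feedback, had an ES bin over coding exon sequence (chromosome 11, 108785001 to 108790000). Apc, a scaffold of the destruction complex, had 1 intron bin among its 22. The Dvl1 bin (chromosome 4, 155230001 to 155235000) also touches Tas1r3. Ctnnb1, which encodes beta-catenin, Gsk3b, the kinase that marks it, Axin1, Dvl2, Dvl3 and Nkd2 had no bin on either list. Gsk3b had none among 34 bins over 157 kb, with a median of 8.50 CpG per kb.

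By position in the gene, promoters held 7 altered bins of WNT genes in ES cells and 3 in MEFs, while introns held 9 and 18. Most of the MEF intron bins lay at Nkd1, Sfrp1, Lgr4 and Tcf7l2, many of them in stretches of nearby bins. A promoter bin, within 1 kb of the start, was listed at 7 genes in ES cells (Wnt2, Wnt2b, Wnt8a, Lrp6, Sfrp5, Dkk4 and Tcf7l1), which is 12.1% of the 58 against 4.26% of all genes. In MEFs it was 3 genes (Wnt2b, Wnt10b and Lef1), 5.17% against 3.22%, and 6 genes when starts were widened to 2.5 kb either side. When the bin midpoint had to lie within 2.5 kb of the start, 6 genes had a promoter bin in ES cells and 2 in MEFs. Of the 79 promoter bins 8.86% were listed in ES cells [3.64% to 17.4%] and 3.80% in MEFs [0.790% to 10.7%], where all genes had 3.11% and 2.41%. Of the 278 intron bins 3.24% [1.49% to 6.06%] were on the ES list and 6.47% [3.88% to 10.0%] on the MEF list, against 1.82% and 2.57% of the intron bins of all genes. Exon bins, 227 in all, were listed at 5.29% [2.76% to 9.05%] in ES cells and 7.05% [4.08% to 11.2%] in MEFs, against 3.42% and 2.18%. Of the 42 bins wholly upstream, 2 were on the ES list (4.76% [0.582% to 16.2%], against 1.94% of those of all genes). On the MEF list were 0 [0% to 8.41%], against 1.71%. The intervals of the 2 cell types overlapped in each class, and the difference between cell types was not tested.

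**Figure D4:**
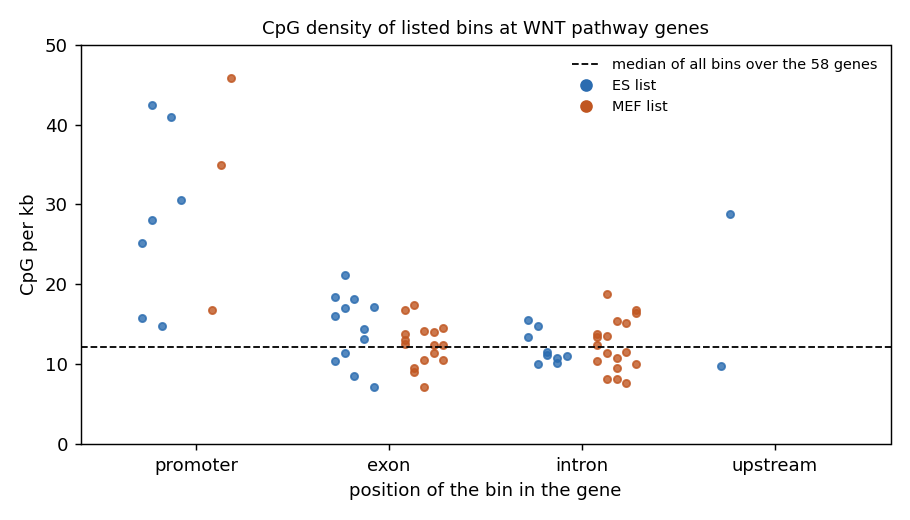
CpG per kb (y axis) of each listed bin over the 58 WNT pathway genes, by position in the gene (x axis), with ES bins in blue, MEF bins in orange and the median of all 626 bins dashed at 12.2. Points above 25 CpG per kb are promoter bins, apart from the ES bin upstream of Lef1.

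Altered bins of the WNT genes had a median of 14.8 CpG per kb in ES cells and 12.6 in MEFs, against 12.2 in all their bins. Over all genes the altered bins had 13.0 and 11.6, against 8.60 in all bins, a wider gap in both cell types. When bins were divided by CpG density, the WNT genes and all genes differed least in the middle class in ES cells. Bins with 10 to 20 CpG per kb were listed at 5.54% [3.42% to 8.43%] of 361 bins over WNT genes and 5.26% over all genes. In MEFs the same class gave 7.76% [5.22% to 11.0%] against 4.30%. In the class with 20 or more CpG per kb the shares were 8.54% [3.50% to 16.8%] against 4.90% in ES cells and 2.44% [0.297% to 8.53%] against 3.03% in MEFs, over 82 bins. Below 10 CpG per kb they were 1.64% [0.339% to 4.72%] against 0.892% in ES cells and 3.83% [1.55% to 7.72%] against 1.26% in MEFs, over 183 bins.

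Where a gene had bins on both lists, they coincided or touched at 6 of 9 WNT genes (66.7%), against 638 of 1535 among all genes (41.6%). This difference was not tested. The same bin was altered at Wnt5b, Lgr4 and Lgr6, and the nearest ES and MEF bins were direct neighbours at Wnt2b, Tcf7l2 and Lef1. At Wnt11, Lrp6 and Tcf7l1 they were 15.0, 30.0 and 70.0 kb apart, from centre to centre.

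A further 56 genes of the pathway were counted in the same way. Of these 23 had an ES bin (41.1%, against 19.8% of all genes) and 25 a MEF bin (44.6%, against 14.1%). Bins on both lists were found at 12 (21.4%, against 5.90%). The listed share of their 850 bins was 4.12% in ES cells and 6.0% in MEFs, against 2.57% and 2.37% over all genes. Some of these genes are very long, such as Ror1 (349 kb) and Prickle2 (335 kb). Of all genes over 60 kb, 43.1% had an ES bin and 38.4% a MEF bin. The part of length was not tested. Genes with 3 or more bins on a list were Ror1, Ror2, Ptk7, Rspo2, Tnks2, Prickle2, Daam1, Dact2 and Ccdc88c. Ror1 and Ror2, the receptor kinases for WNT5A, had 6 and 3 MEF bins against 1 and 3 in ES cells. Ptk7, a planar polarity co-receptor, had 3 ES bins and 1 MEF bin, all of which also touch Gm16736. Daam1, a formin of the polarity branch, had 2 ES bins and 4 MEF bins. Prickle2, a further planar polarity gene, had 1 ES bin and 3 MEF bins, and Ccdc88c, which encodes a Dishevelled-binding protein, 1 and 4. The ES bin of Ccdc88c also touches A630072L19Rik. The R-spondin gene Rspo2 had 4 MEF bins and 0 ES bins. Tnks2, which encodes the tankyrase that marks Axin for breakdown, had 3 ES bins and 0 MEF bins. Dact2, a Dishevelled-binding antagonist gene of 8.60 kb, had 3 of its 4 bins listed in MEFs, 2 of them at the promoter, and 0 in ES cells.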

How the data were processed

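5hmC-bearing DNA of 4 cultures was captured by azide-glucose tagging, biotinylation and streptavidin, per the labels' protocols. BWA, SAMtools 1.3.1 and mm9 are named without their role, per the submitters' processing notes; the counting, the caller, its threshold and any input library are not stated in these sources. The deposited values are other than measurements of level: the authors' lists give the start, end and number of each differential bin.

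The reference was NCBIM37 (mm9) with GENCODE M1. Its bin numbering matched that of the lists on chromosomes 1 to 19 and X, at all 8545 bins for ES cells and all 8972 for MEFs. Gene models of the types protein-coding, lincRNA and processed transcript were used, with the longest locus where a name recurs. All 58 symbols matched by name, and the 56 others by name or RefSeq synonym. A bin belonged to a gene when it overlapped the locus or the 5 kb upstream. All-gene position classes took the class nearest to a promoter over any gene. Among protein-coding genes alone, 20.8% had an ES bin and 14.4% a MEF bin. Bins were joined into stretches across gaps of at most 10 kb.

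Members, families and lists were chosen with earlier results of these data known. Every one of the 58 genes with a bin is named, those with 3 or more bins, bins on both lists or a promoter bin with positions, except coordinates on chromosome 18. Of the 56 others, those with 3 or more bins on a list are named, and a few more after their values were seen. Sequences come from NCBIM37, outside annotated UTRs, for the genes with most bins on each list, ties included; those before the starts of Wnt2b and Lef1 were chosen after their values were seen. Bin assignment was checked on test data with known answers. Alternatives changed the upstream reach, overlap rule, gene model, sharing with other genes, promoter width and joining distance, and left out the gene with most bins. Python 3.11.15, numpy 2.4.6, scipy 1.17.1 and matplotlib 3.10.9 were used.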

Additional observations from a re-analysis of the deposited data

How the results depend on the processing

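Of 133 alternative values of the counts and shares by role and cell type, 129 stayed within 1.5 times the reported count or inside the interval of the reported share. Over 6 alternatives the genes with an ES bin numbered 18 to 22 and those with a MEF bin 17 to 19. The listed share of bins ran from 4.50% to 5.15% in ES cells and from 4.92% to 6.33% in MEFs. The 4 that moved were the ES antagonist genes, 1 with bins that touch no other gene body, the MEF promoter genes, 6 with starts widened to 2.5 kb either side, the bins on both lists, 6 when a direct neighbour counts, and the MEF share of the intracellular parts, 3.27% without Nkd1. Leaving out the gene with most bins of each role was chosen after seeing the data; it also took the MEF share of receptors from 4.71% to 2.68% (without Lgr4), the MEF share of antagonists from 8.64% to 4.23% (without Sfrp1) and the ES share of antagonists from 2.47% to 1.28% (without Sfrp5). Lgr6, left out as the gene with most ES bins, was tied with Tcf7l2 and Lef1. Single-gene counts stayed within 1.5 times in 280 of 290 values. A stricter threshold on bins could not be tried, since the lists carry no score. No paired analysis was possible because each group has 1 library. Depth is unknown, so a gene with no listed bin is not shown to be unaltered.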

Other observations

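Of the 56 other pathway genes, 20 had no bin on either list, among them the target gene Ccnd1 and the regulators Notum, Rspo4, Kremen1, Dact1 and Dact3. The 4 genes that follow were picked after their values were seen. Sp5, a direct WNT target gene, had 2 MEF bins, 1 of them at its promoter (chromosome 2, 70310001 to 70315000), and 0 ES bins. Rspo1, an R-spondin gene, had 1 bin on both lists (chromosome 4, 124665001 to 124670000) and a MEF bin at its promoter next to it. This promoter bin also touches Gm12930. Rnf43, which encodes a ubiquitin ligase that removes Frizzled from the cell surface, had 2 ES bins, 1 at the promoter (chromosome 11, 87475001 to 87480000), and 1 MEF bin. The other ES bin of Rnf43 also touches 1110028F11Rik. Myc had 1 MEF bin over coding exon and 3′ UTR sequence.

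The letters CTTTGAT and CTTTGAA, core forms of the TCF/LEF motif, were searched on both strands of the 5 kb bins. At least 1 match was found in 24 of 30 ES bins of the WNT genes (80.0% [61.4% to 92.3%]) and in 36 of 37 MEF bins (97.3% [85.8% to 99.9%]), against 88.1% of all bins over genes and 85.8% of all bins over the WNT genes. Among the listed bins over all genes the share with a match was 84.4% in ES cells and 85.2% in MEFs. Bins of this width nearly always hold such short words, so the match separates few bins. Among the altered bins of the WNT genes, the most matches in 1 bin, 8, were in the ES bin of Axin2, followed by 7 in a MEF bin of Nkd1. The number of matches per bin was not compared with other bins.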
